A study of Mus musculus with 41 samples.

Results

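The genes described here are 46 genes of ribosome biogenesis, listed by name for their known roles, with earlier results of these data in view. For a gene with several probe sets annotated to it alone, the one of highest mean log2(signal + 32) was read. Of the 46 genes, 45 had such a probe set and Npm3, a nucleolar histone chaperone, had none. All 45 passed the filter on low signals and were tested among 11947 genes. The arrays carried probe sets for 18193 genes in all.

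Signals came from 41 single-colour Affymetrix arrays, each of total RNA from 1 flow-sorted population of the B cell lineage. All mice were C57BL/6 with wild-type Pax5, the transcription factor that holds cells in the B lineage, and no treatment was given. There were 7 populations. The earliest was the common lymphoid progenitor (CLP), with 7 arrays, followed by the fractions of the Hardy scheme: A and B with 7 arrays each, and C, D, E and F with 5 each. In that scheme A holds pre-pro-B cells, B and C pro-B and early pre-B cells, D small pre-B cells, E immature and F mature B cells. The sorting gates, the tissue and the age of the mice are not given in the sources used here. Nothing in those sources says that arrays of a population came from separate animals, so a p-value here is set against differences between arrays that could be technical.

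Ribosomes are built in the nucleolus, where RNA polymerase I transcribes one long precursor RNA. Small nucleolar ribonucleoproteins (snoRNPs) modify this precursor, the small subunit processome and the large subunit assembly factors fold and cut it, and ribosomal proteins join on the way. The pathway is the costliest biosynthetic task of a growing cell, and the transcription factor Myc is known to raise many of its genes. In the B lineage, the pro-B and large pre-B stages divide, whereas small pre-B and mature B cells rest.

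Promoters of these genes were read for the letters CACGTG, the E-box that Myc and its relatives can bind, because the genes moved together across populations. The window ran from 250 bases before to 50 after each gene start (RefSeq, GRCm38.p6), and 40 of the 46 genes had an entry in the promoter table. CACGTG, which reads the same on both strands, stood in 9 of these 40 promoters (22.5%). It stood in 11.7% of the 9693 promoters of genes tested on the arrays and in 8.09% of all 27025 promoters of that table. The 9 stretches below are shown because they carry the match. Each is written 5′ to 3′ on the strand of its gene, with CACGTG in capitals.
Grwd1: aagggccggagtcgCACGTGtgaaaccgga
Mybbp1a: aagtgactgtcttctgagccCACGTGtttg
Nle1: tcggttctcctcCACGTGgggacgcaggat
Pes1: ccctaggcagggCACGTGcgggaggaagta
Tsr1: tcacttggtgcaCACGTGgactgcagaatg
Utp20: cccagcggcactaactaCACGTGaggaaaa
Wdr43: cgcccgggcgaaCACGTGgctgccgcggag
Imp4: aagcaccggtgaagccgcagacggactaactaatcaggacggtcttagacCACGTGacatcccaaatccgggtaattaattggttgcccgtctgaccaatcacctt
Nop2: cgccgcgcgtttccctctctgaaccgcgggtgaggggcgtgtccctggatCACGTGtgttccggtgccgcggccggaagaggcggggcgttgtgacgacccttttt

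In 7 of the 9 genes the match lay after the start: Grwd1 (chr7:45830740-45830769, minus strand), Mybbp1a (chr11:72441347-72441376, plus strand), Nle1 (chr11:82908355-82908384, minus strand), Pes1 (chr11:3963965-3963994, plus strand), Tsr1 (chr11:74898092-74898121, plus strand), Utp20 (chr10:88826765-88826794, minus strand) and Wdr43 (chr17:71616220-71616249, plus strand). In Imp4 (chr1:34439658-34439763, plus strand) and Nop2 (chr6:125131773-125131878, plus strand) it lay before the start. The match is a description of letters and not of binding. Other motifs were searched on both strands, each on its own, so that matches of different motifs could overlap. CGGAAG stood in 55% of the 40 promoters and in 34.4% of those of genes tested, GGGCGG in 75% and 66.7%, CCAAT in 32.5% and 42.6%, TATAAA in 5% and 9.03%, and the palindromic NRF1 motif in 0% and 2.42%.

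On every array the mean of the signals without the lowest and highest 2% was 500, while array medians ran from 69.1 to 153.1. Fraction A stood apart: its arrays correlated with the others of their population at 0.781 to 0.885 on average, against 0.903 or more in each other population. For Gapdh, the signal of the 3' probe set over that of the 5' one was 6.40 to 33.8 in A, 4.14 to 10.8 in B and 3.56 to 5.08 in the CLP. For actin it was 0.85 to 1.26 in A, 0.98 to 1.18 in B and 1.20 to 1.35 in the CLP, lower in A and B on average. Summed signals of 9 natural killer (NK) and T cell markers were 35727 to 60834 in fraction A against 2292 to 6195 for CLP arrays. Of the 9, the NK genes Gzma, Ncr1, Klrk1, Klrd1 and Nkg7 rose and the T cell gene Cd3e fell, and Gzma, with a mean of 30736 in A and 111 in the CLP, made up most of the sum. The mean log2 level of 7 B lineage markers was 11.96 in the CLP, 8.96 in A and 12.57 in B. The CLP thus lay nearer to B than to A for these markers. Fraction C held 11 neutrophil and myeloid markers at summed signals of 61466 to 83285, against 4849 to 21820.4 in B and 18996 to 25804 in D. The range was 18510 to 60993.5 in the CLP and 13267 to 107598 (median 25210) in E, so that the highest array of E exceeded every array of C. The part of these cells and of RNA quality in the results was not tested. In sorted bulk RNA, fewer cells of a type and less RNA per cell cannot be told apart.

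The 5 arrays of fraction C differed among themselves in the ribosome biogenesis genes. The mean log2(signal + 32) of the 45 genes was 10.95 on C array 2 and higher still on C array 1. It was 10.32, 10.39 and 10.29 on the other three. Arrays 1 and 2 were the highest of the 5 for 39 of the 45 genes (86.7%), against 2524 of all genes tested (21.1%) and 4 of 41 cytosolic ribosomal protein genes (9.76%). For the ribosomal protein genes this turned with the scaling. Their mean log2 level was 13.35 and 13.17 on arrays 1 and 2 against 12.93 to 13.29 with scaled signals. After quantile normalization it was highest on arrays 1 and 2, at 13.60 and 13.63 against 13.39 to 13.52. The same arrays were highest for Myc, at log2 levels of 12.04 and 11.73 against 10.96, 11.16 and 10.92. They also held the highest mean log2 levels of the neutrophil and myeloid markers, at 12.11 and 11.93 against 11.29 to 11.60. Erythroid markers (8.97 and 8.70 against 7.44 to 8.35) and NK and T cell markers (8.58 and 7.68 against 7.34 to 7.59) split likewise. So did DNA replication genes (11.67 and 11.72 against 11.17 to 11.42). B lineage markers were lowest on arrays 1 and 2, at 12.48 and 12.36 against 12.56 to 12.88. Plasmacytoid dendritic, lymphoid progenitor and mature B markers did not split this way. Counts that rest on fraction C are therefore given without each of these arrays too.

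The ribosome biogenesis genes were highest in fraction B and lowest in fraction D. Their mean log2(signal + 32) was 10.84 ± 0.0737 (SD, n = 7) in the CLP. The level was 10.70 ± 0.0979 (SD, n = 7) in fraction A, and 11.20 ± 0.0955 (SD, n = 7) in fraction B. It was 10.59 ± 0.352 (SD, n = 5) in C, 9.97 ± 0.0579 (SD, n = 5) in D, 10.42 ± 0.0879 (SD, n = 5) in E and 10.47 ± 0.0464 (SD, n = 5) in F. All 7 arrays of B lay above all other arrays, and all 5 arrays of D lay below all others. The ranges of neighbouring levels overlapped between the CLP and A, between C and both the CLP and A, between C and both E and F, and between E and F. After quantile normalization, which gives all arrays the same distribution, D again held the 5 lowest arrays, and the lowest array of B was 10.98 beside 11.01 for the highest of C.

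**Figure D1:**
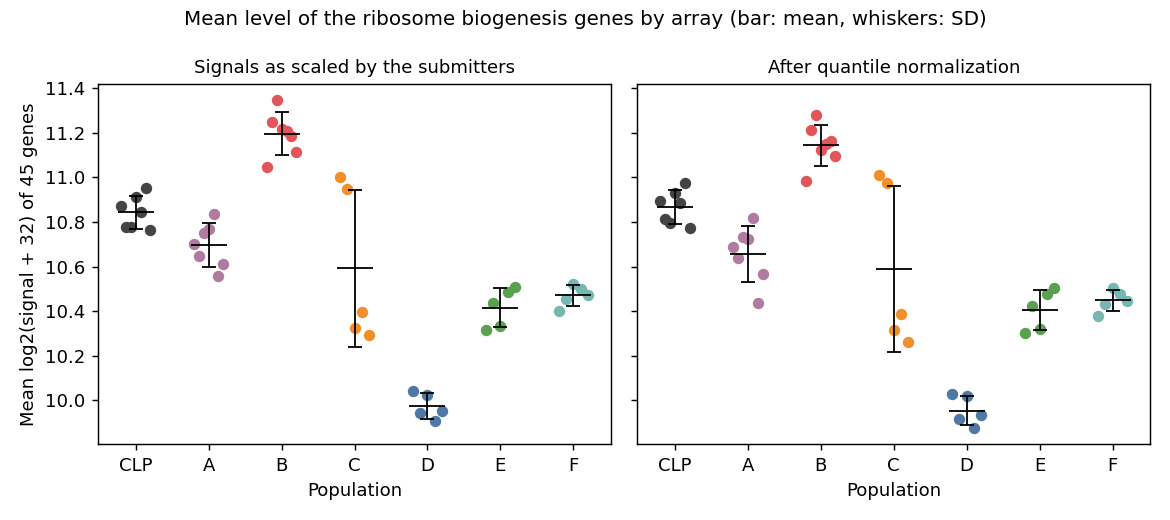
Mean log2(signal + 32) of the 45 ribosome biogenesis genes on each of 41 arrays (points), by population on the x axis, with bars for the population mean and whiskers for the SD between arrays. The left panel has the scaled signals and the right panel quantile-normalized ones; D lies lowest in both, at 9.91 to 10.04 with scaled signals, and the arrays of C form an upper pair and a lower trio.

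Across the 7 populations, 41 of the 45 genes passed limma's F-test (Benjamini-Hochberg adjusted p under 0.05), beside 73.3% of all genes tested. The other 4 were Nop14 (limma adjusted p = 0.337) and Bysl (limma adjusted p = 0.0665), factors of small subunit assembly, and Nip7 (limma adjusted p = 0.0533) and Nle1 (limma adjusted p = 0.0574), factors of large subunit assembly. With quantile normalization 41 also passed (70.8% of all), and those that missed were Nop14, Bysl, Rrp9 and Rrs1. The population with the highest mean was B for 28 genes, the CLP for 9, A for 4, C for 2 and E for 2. The lowest was D for 32, A for 8, C for 3 and F for 2. Between its highest and lowest population a gene moved by 0.64 to 2.64 on the log2 scale, with a median of 1.32. With quantile normalization the highest mean was in B for 30 genes and in the CLP for 8. The lowest was then in D for 37, A for 3, F for 3, E for 2 and C for 0.

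**Figure D2:**
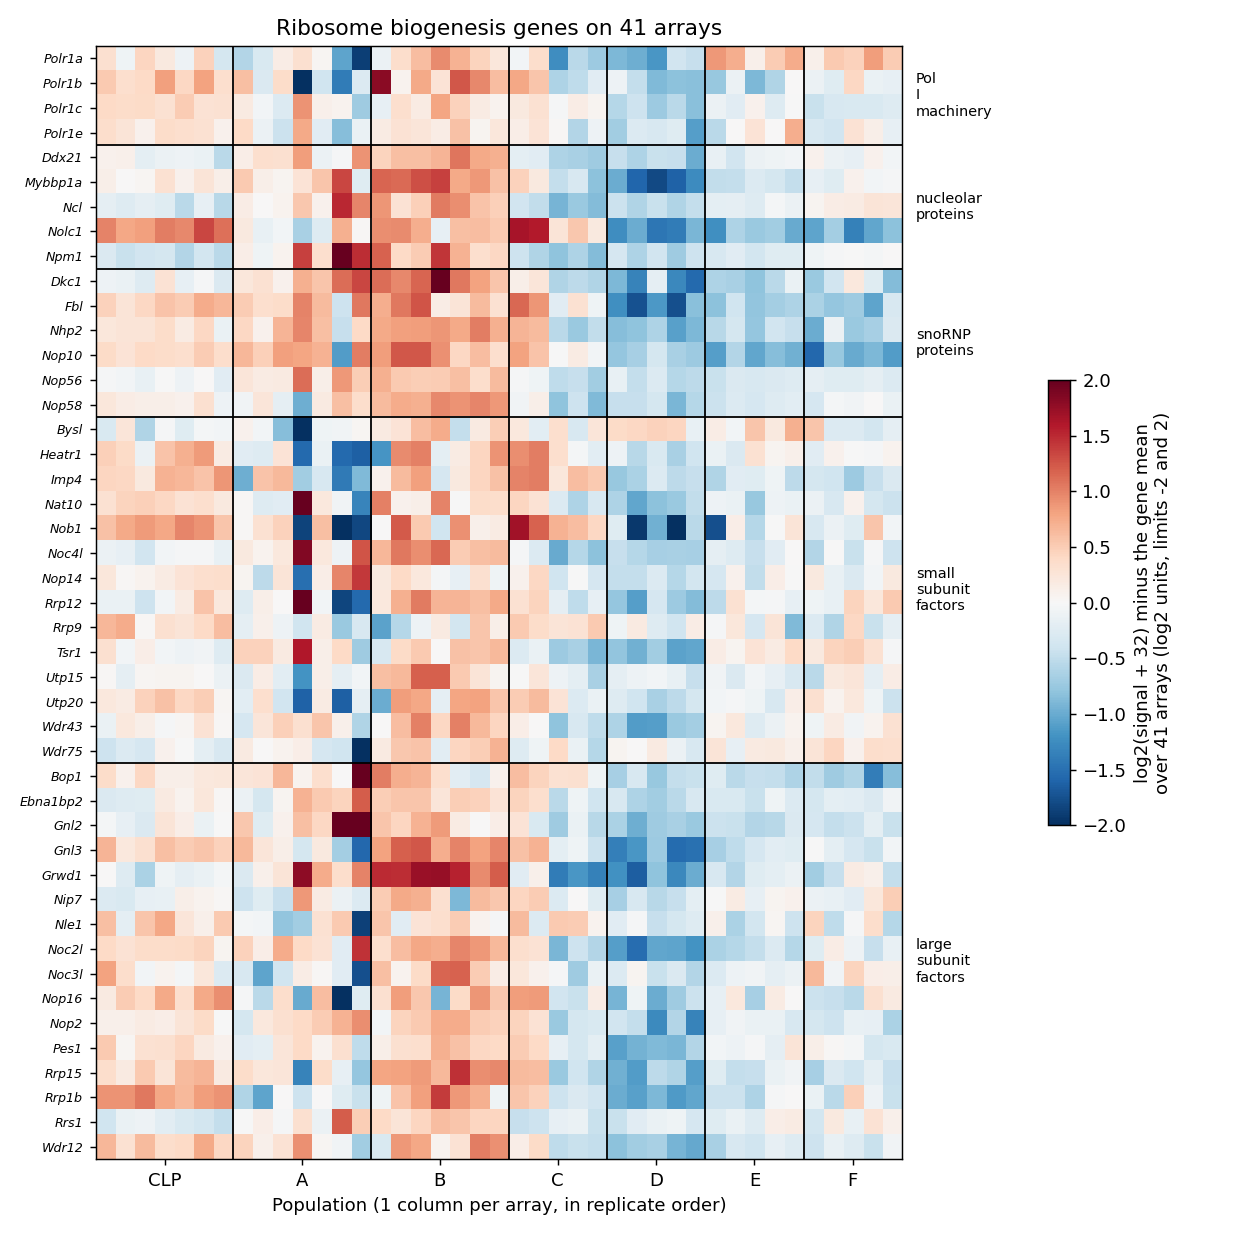
Colour shows log2(signal + 32) minus the mean of the gene over 41 arrays, from -2 (blue) to 2 (red), for 45 genes (1 line each, by role) and 41 arrays (1 column each, by population). The 7 columns of B are mostly red and the 5 of D mostly blue, and the first 2 columns of C are redder than the last 3.

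Each population was compared with the one before it on the path, and B and F also with the CLP and D with B. The words rose and fell are kept for genes with a limma adjusted p under 0.05, the adjustment (Benjamini-Hochberg) taking in all 11947 genes. Comparisons next to each other share the arrays of a population, so their results are not independent. Differences are on the log2(signal + 32) scale, first minus second, given with their SE. Some counts for other settings, such as array weights or fits of fewer populations, come without a share of all genes. Such counts do not tell whether the listed genes or all genes were called more or less often.

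Between the CLP and fraction A, genes were called in both directions. Of the 45 genes 9 rose (11.5% of all genes tested did) and 13 fell (25.5% of all did), with a median difference of -0.14 beside -0.22 for all genes. The share called lower was close to that of all genes, 28.9% against 25.5%. Falls were large for Rrp1b (-1.25), a large subunit factor, and Heatr1 (-1.16), of the small subunit processome. Nob1, the nuclease that trims the small subunit RNA, was also called lower, but only 4 of 7 arrays of A reached their array's median for it, so the size of that fall is not settled. The largest rises were those of Npm1 (1.18) and Gnl2 (1.00), a GTPase of large subunit assembly. Both rested in part on a few arrays of A. Gnl2 signals were 21399.5 and 38345 on A arrays 6 and 7. On the rest of A they were 3754 to 6742, overlapping 3621 to 5308 in the CLP. Without A array 7 the difference of Gnl2 was 0.65. Npm1 signals were 59985 to 92536 on A arrays 4, 6 and 7 and 21679 to 29094 on the rest. The rises depended on the scaling: with quantile normalization only those of Gnl2 (0.54) and Grwd1 (0.72) were called (12.5% of all genes rose), and 9 genes fell (21.1% of all). Arrays did not overlap for 3 genes with A higher (3.98% of all) and 2 with A lower (5.41% of all). For 6 of the 22 genes called, Dkc1, Gnl2, Grwd1, Ncl, Noc4l and Nop56, another probe set of the gene was called the opposite way, and without A arrays 4, 6 and 7 the falls numbered 5. They numbered 5 with median centring, 5 in a fit of A and the CLP alone, 7 with array weights and 8 with a stricter filter.

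From fraction A to B, 22 genes rose (16.8% of all did), with a median difference of 0.45 beside 0.02 for all genes. None fell (14.5% of all did); 1 was lower at an unadjusted p under 0.05 in limma. A fit of A and B alone called 8. Risers came from every role: 2 of 4 genes of the polymerase I machinery, 3 of 5 nucleolar proteins, 1 of 6 snoRNP proteins, 9 of 14 small subunit factors and 7 of 16 large subunit factors. Rises were large for Polr1b (1.33 ± 0.31; limma adjusted p = 0.000738), which reached the array median on 5 of 7 arrays of A, Gnl3 (1.16 ± 0.21; limma adjusted p = 3.28e-05) and Noc3l (1.09 ± 0.23; limma adjusted p = 0.000282). With quantile normalization 23 rose (17.8% of all) and none fell (13.1% of all). Arrays did not overlap for 3 genes, B being higher (2.11% of all). When each array of A and B was left out in turn, 15 of the 22 stayed called each time, and the count was 23 without A arrays 4, 6 and 7. The NK and T cell markers moved in the opposite direction, 8 of 9 falling, and 6 of 6 markers of plasmacytoid dendritic cells fell; their part in the rise was not tested.

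Against the CLP, 15 genes were higher in B (8.77% of all genes rose) and 1, Rrp9, was lower (18.9% of all fell). The median difference was 0.42 beside -0.20 for all genes. Grwd1 rose most (1.64 ± 0.23; limma adjusted p = 6.89e-07), followed by Dkc1 (1.20 ± 0.21), the pseudouridine synthase of box H/ACA snoRNPs, and Npm1 (1.13 ± 0.20). The arrays of B and the CLP did not overlap, B being higher, for 13 of the 45 genes, beside 5.02% of all genes, and for 0 with B lower (8.26% of all). With quantile normalization 11 rose (6.81% of all) and none fell (11.5% of all), with 2 lower at an unadjusted p under 0.05 in limma, and the all-gene median moved to -0.02. Another probe set of Ncl was called the opposite way. The count of risers was 28 with median centring, 24 with array weights, 24 in the fit without A and 9 with the mean of probe sets. Beside these rises, 10 of 11 neutrophil and myeloid, 6 of 9 NK and T and 4 of 6 plasmacytoid dendritic cell markers fell, and their part was not tested. Rrp9, a protein of the U3 snoRNP, fell by 0.61 on the log2 scale (limma adjusted p = 0.0353); the call was lost without any one of CLP array 1, CLP array 2, CLP array 7, B array 1, B array 2 or B array 5 (-0.58 to -0.46).

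From B to C, 22 genes fell (8.8% of all did) and none rose (14.2% of all did), with 1 higher at an unadjusted p under 0.05 in limma. The median difference was -0.69, while that of all genes was 0.19. The falls were led by Grwd1 (-2.25 ± 0.25; limma adjusted p = 1.41e-08), Dkc1 (-1.38 ± 0.23) and Npm1 (-1.37 ± 0.22). By role, 4 of 5 nucleolar proteins and 4 of 6 snoRNP proteins fell, beside 1 of 4 genes of the polymerase I machinery, 4 of 14 small subunit factors and 9 of 16 large subunit factors. Arrays did not overlap for 14 genes, C being lower (5.47% of all genes), and for 0 with C higher (7.6% of all). With quantile normalization 22 fell (7.16% of all) and none rose (8.59% of all). The count was 26 without C array 1, 24 without C array 2, and 17 to 19 without one of the other three. Beside these falls, 10 of 11 neutrophil and myeloid markers rose from B to C, and their part was not tested.

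From C to D, 18 genes fell (13.6% of all did), with a median difference of -0.62 beside -0.10. None rose (7.46% of all did), and 0 were higher at an unadjusted p under 0.05 in limma. Falls were large for Nolc1 (-2.04 ± 0.24; limma adjusted p = 5.58e-08) and Fbl (-1.75 ± 0.24; limma adjusted p = 9.99e-07). Nob1 was also called lower (limma adjusted p = 0.000726), but only 2 of 5 arrays of D reached their array's median for it, so the size of its fall is not settled. With quantile normalization 18 fell (15.8% of all) and none rose (8.93% of all). Arrays did not overlap for 14 genes with D lower (17.5% of all) and 0 with D higher (11.3% of all). The upper pair of C arrays bears on this count: 11 fell without C array 1 and 12 without C array 2. With array weights 31 fell. Of the neutrophil and myeloid markers 9 of 11 fell too.

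The step from B to D, whose difference does not take in the arrays of C, held the most calls. The arrays of C did enter the shared estimate of the spread behind those calls. Of the 45 genes 39 fell (14.7% of all genes did) and none rose (15.9% of all did), with 0 higher at an unadjusted p under 0.05 in limma. The median difference was -1.23 beside 0.08 for all genes. The falls were of 4 of 4 genes of the polymerase I machinery, 5 of 5 nucleolar proteins, 6 of 6 snoRNP proteins, 9 of 14 small subunit factors and 15 of 16 large subunit factors. The 6 that were not called were Heatr1 (-0.70 ± 0.31), Nop14 (-0.56 ± 0.27), Wdr75 (-0.42 ± 0.23), Bysl (0.02 ± 0.31), Rrp9 (0.09 ± 0.25) and Nle1 (-0.48 ± 0.28). Arrays of B and D did not overlap for 34 genes with D lower (9.89% of all) and 0 with D higher (9.87% of all). With quantile normalization 42 fell (17.7% of all) and none rose (11.8% of all), and the count was 37 to 40 when each array of B and D was left out in turn. Another probe set of Nat10, the RNA acetyltransferase of the small subunit, was called the opposite way.

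**Figure D3:**
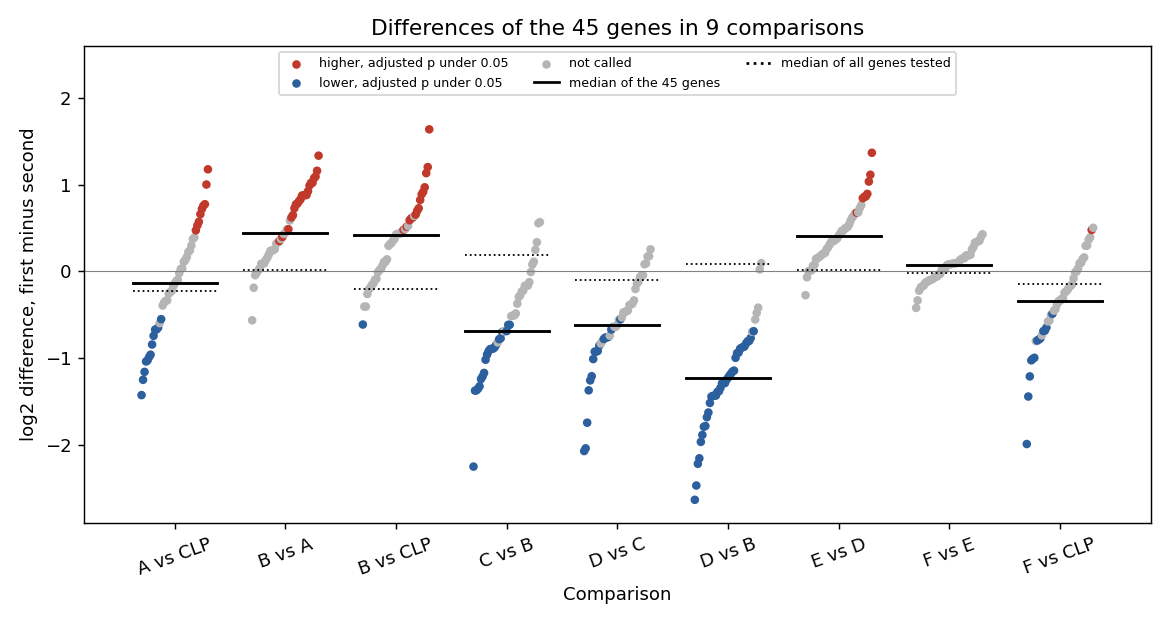
Log2 differences (y axis) of the 45 genes in 9 comparisons (x axis); each point is a gene, red where higher and blue where lower at a limma adjusted p under 0.05, grey otherwise. Solid bars are the median of the 45 genes and dotted bars that of all genes tested; in D vs B the solid bar lies at -1.23 and the dotted one at 0.08.

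From D to E, 8 genes rose (3.89% of all genes did), with a median difference of 0.41 beside 0.01. None fell (4.21% of all did), and 0 were lower at an unadjusted p under 0.05 in limma. Polr1a (1.37 ± 0.30; limma adjusted p = 0.00138), Tsr1 (1.11 ± 0.22; limma adjusted p = 0.000434) and Mybbp1a (1.04 ± 0.21; limma adjusted p = 0.000443) rose most. The others were Grwd1 (0.89 ± 0.27), Gnl3 (0.86 ± 0.25), Pes1 (0.86 ± 0.18), Wdr43 (0.84 ± 0.20) and Noc2l (0.68 ± 0.21). Arrays of D and E did not overlap for 19 of the 45 genes, E being higher (9.35% of all genes), and for 0 with E lower (9.15% of all). With quantile normalization 13 rose (5.01% of all) and none fell (5.47% of all). Left out one at a time, D array 1, D array 2, D array 4, E array 1, E array 3, E array 4 or E array 5 (0.78 to 0.90) ended the call of Grwd1, D array 4, D array 5, E array 4 or E array 5 (0.79 to 0.82) that of Gnl3 and D array 2, D array 5, E array 3, E array 4 or E array 5 (0.59 to 0.69) that of Noc2l. The count was 5 without E array 4 and 5 without E array 5, and 5 with median centring. It was 25 in a fit of D and E alone, 23 with array weights and 17 in the fit without A. Shares of all genes are not given for these settings. Whether these genes or all genes were called more often cannot be told from these counts. Summed signals of the neutrophil and myeloid markers were 13267 to 107598 in E beside 18996 to 25804 in D, and their part was not tested.

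Of the 9 genes with CACGTG in the promoter, 5 rose from D to E (Mybbp1a, Tsr1, Grwd1, Pes1 and Wdr43), with a median difference of 0.84. Of the 30 measured genes with a promoter entry and no CACGTG, 3 rose, with a median of 0.39 (3.89% of all genes tested rose). From B to D, 8 of the 9 and 25 of the 30 fell (14.7% of all), with medians of -1.29 and -1.20. The other comparisons read this way showed less contrast. From C to D, 5 and 11 fell (13.6% of all), with medians of -0.64 and -0.57. Against the CLP, 3 and 10 were higher in B (8.77% of all), with medians of 0.32 and 0.43. These counts describe a small group and were not tested.

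Between E and F none of the 45 genes was called by limma in the fit of all 7 populations, with scaled or quantile-normalized signals, and 0 were higher and 0 lower at an unadjusted p under 0.05 with scaled signals (1 higher and 0 lower after quantile normalization). A fit of E and F alone called 2 of the 45, and array weights 1. Few genes were called in this comparison as a whole (0.259% rose and 0.209% fell). The median difference was 0.08 beside -0.02 for all genes, and differences ran from -0.42 for Bysl to 0.43 for Polr1b. Arrays did not overlap for 4 genes with F higher (3.1% of all) and 1 with F lower (3.21% of all).

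Mature fraction F, set against the CLP, was lower for 13 genes (26.6% of all genes fell) and higher for 1, Ncl (15.2% of all rose). The median difference was -0.34 beside -0.15 for all genes. Falls were largest for Nolc1 (-1.99 ± 0.22; limma adjusted p = 1.2e-09), Nop10 (-1.44 ± 0.22; limma adjusted p = 7.43e-07) and Fbl (-1.21 ± 0.22; limma adjusted p = 2.26e-05). Nolc1 is a chaperone of snoRNPs, Nop10 a subunit of box H/ACA particles and Fbl the methyltransferase of box C/D particles. The snoRNP proteins did not all fall, however. Of the 6 listed, 3 fell (Fbl, Nop10 and Nhp2) and 3 were not called (Nop56, Nop58 and Dkc1). The share of the ribosome biogenesis genes called lower was close to that of all genes, 28.9% against 26.6%. With quantile normalization 16 fell (29.2% of all) and 1, Wdr75, was higher (15.7% of all), whereas Ncl was not called (0.12); another probe set of Ncl and one of Bop1 were called the opposite way. A fit of F and the CLP alone gave 24 falls, and array weights 22.

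Among the genes of the polymerase I machinery, Polr1a, the largest subunit of the enzyme, was low in D and had overlapping arrays in B, E and F. Its signals were 486 to 884 (median 724) on the 7 CLP arrays, 147 to 799 (median 505) in A and 576 to 1241 (median 866) in B. They were 606, 813, 248, 425 and 366 in C, 324, 305, 264, 473 and 449 in D, 1172, 1069, 680.3, 911 and 1075 in E and 678, 924, 877, 1150.5 and 914 in F. All arrays of E and F lay above all of D, and E was not tested against B. Its fall from B to C (-0.89; limma adjusted p = 0.0166) was lost without any one of C array 3 or C array 5 (-0.82 to -0.69).

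Polr1b, the second subunit of the catalytic core, behaved otherwise. Its signals were 289 to 418 (median 305) in the CLP, 21.2 to 353 (median 176) in A and 234 to 849.8 (median 398) in B, and the ranges of A and B overlapped. They were 404, 340.0, 134, 147 and 184 in C, 205, 151, 106, 111 and 111 in D, 118, 202, 104, 135 and 222 in E and 202, 183, 307, 199 and 195 in F, so that D, E and F lay under every CLP array but for 1 array of F. Of the 5 arrays of D, 2 reached their array's median for it. The difference from B to D was -1.44 ± 0.34 (limma adjusted p = 0.00102), whereas that from D to E, 0.15 ± 0.36, was not called (limma adjusted p = 0.938). Polr1c, a subunit shared with RNA polymerase III, fell from C to D (-0.76 ± 0.18; limma adjusted p = 0.00143) with no overlap between arrays, and Polr1e fell from B to D (-0.77 ± 0.23; limma adjusted p = 0.00776).

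Of the nucleolar proteins, Ncl (nucleolin) and Npm1 (nucleophosmin) are abundant, multifunctional RNA-binding proteins of the nucleolus. Ncl had signals of 9325 to 12281 (median 11694) in the CLP, 13777 to 38995 (median 15192) in A and 16888 to 28433 (median 20398) in B. It had 10567, 9767, 7203, 8183 and 7503 in C, 10254, 9074, 10074, 9063 and 9852 in D, 12053, 12197, 11481, 13391 and 12634 in E and 14340.5, 15252, 15489, 16503 and 16361 in F. Every array of B lay above every array of C, D, E and F, with a difference from B to D of -1.18 ± 0.17 (limma adjusted p = 6.43e-07). From the CLP to A its difference was 0.77 with scaled signals and -0.04 after quantile normalization.

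Npm1 had signals of 15442 to 18903 (median 17774) in the CLP, 21679 to 92536 (median 29094) in A and 29296 to 62434 (median 33016) in B, and both A and B lay wholly above the CLP. It had 17423, 15192, 13169, 15121 and 12635 in C, 18396, 15034, 17695, 14153 and 17409 in D, 18477, 19664, 17908, 19502 and 19515 in E and 21707, 22674, 23062, 22580.3 and 23254 in F. It fell from B to C by 1.37 on the log2 scale (limma adjusted p = 1.01e-05), and by 0.53 after quantile normalization. The higher level in A (1.18) was -0.13 after quantile normalization and not called.

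Mybbp1a, a nucleolar Myb-binding protein, followed the common course most closely among nucleolar proteins. Its signals were 3368 to 4149 (median 3649) in the CLP, 2845 to 8534 (median 4061) in A and 5068 to 8709 (median 7390.5) in B. They were 4652, 3863, 2405, 2686 and 1900.0 in C, 1680.2, 1103, 940.2, 1081 and 1386 in D, 2382, 2414, 2767, 2641 and 2411 in E and 2996, 2829, 3570.3, 3243 and 3300.1 in F. The arrays of B, C, D and E formed ranges without overlap between B and C, C and D, and D and E. Its fall from B to D was -2.47 ± 0.19 (limma adjusted p = 6.67e-13).

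Nolc1 had signals of 3043 to 4510.1 (median 3528) in the CLP, 1109 to 2896 (median 1699) in A and 1571 to 3416 (median 2713) in B. They were 5568, 5344, 2104, 2572 and 2027 in C, 724, 868, 628, 650.1 and 920.5 in D, 735, 1129.9, 1041, 1077 and 862 in E and 828, 1091, 672, 836 and 978 in F. Each array of D, E and F lay below every CLP, B and C array, and all but 1 array of A lay above all of D, E and F. Between C and B it was not called (0.25 ± 0.22; limma adjusted p = 0.457), and C arrays 1 and 2 were the highest of all 41. Ddx21, an RNA helicase of polymerase I transcription and processing, was higher in B than in the CLP (0.82 ± 0.14; limma adjusted p = 1.27e-05) and fell from B to C (-1.17 ± 0.15; limma adjusted p = 1.85e-07).

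**Figure D4:**
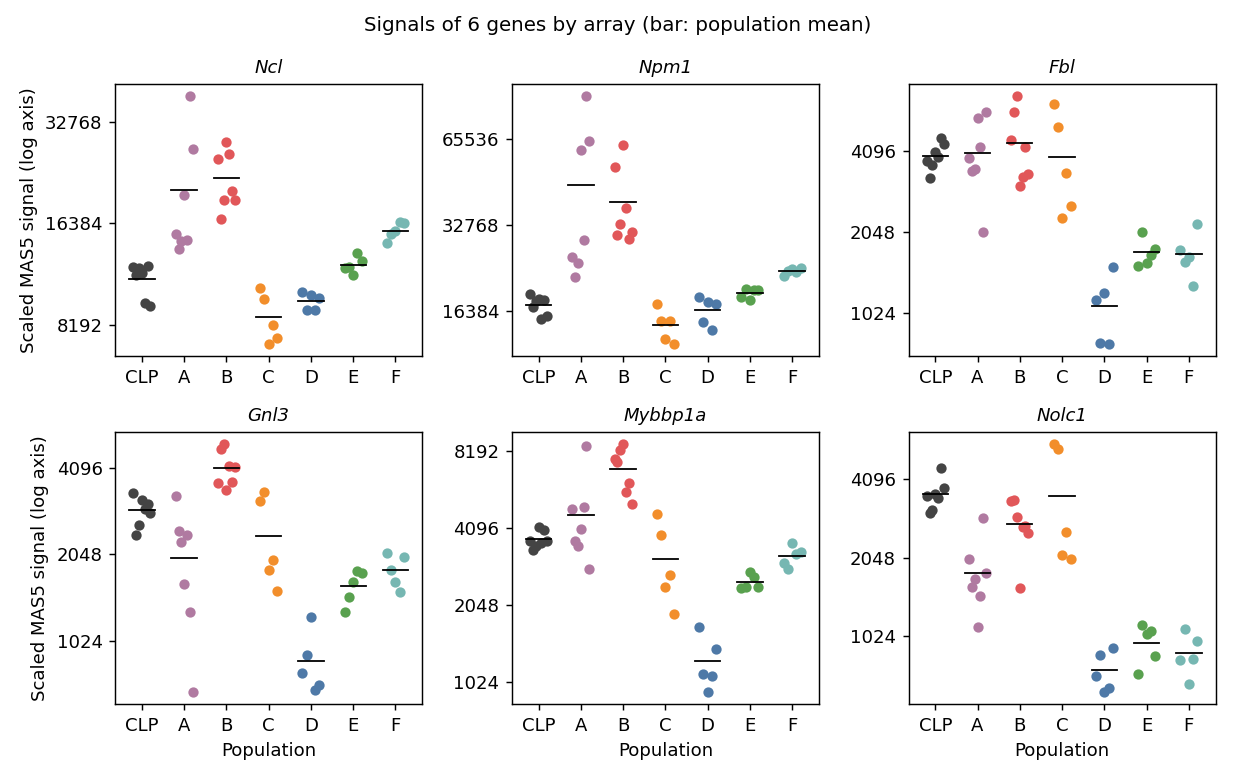
MAS5 signal (y axis, log scale) of 6 genes on each array (points) by population (x axis), with a bar at the population mean. Fbl, Gnl3, Mybbp1a and Nolc1 are lowest in D, whereas Ncl and Npm1 have their lowest mean in C and higher means in D, E and F, in that order. After quantile normalization, not shown here, Ncl and Npm1 too had their lowest mean in D.

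The snoRNP proteins form box C/D particles, which guide methylation, and box H/ACA particles, which guide pseudouridylation. Fbl had signals of 3262 to 4579.7 (median 3909) in the CLP, 2047 to 5712 (median 3876) in A and 3043 to 6560.0 (median 4244) in B. They were 6112, 5037, 2320.2, 3383 and 2569 in C, 1142, 794, 1216, 788 and 1514 in D, 1538, 2052, 1572, 1685 and 1766 in E and 1757, 1588, 1656, 1292 and 2188 in F. Every array of D lay below every array of the CLP, A, B, C and E, and E and F lay below the CLP. Fbl was not called between B and C (-0.22 ± 0.22; limma adjusted p = 0.515), and it fell from C to D.

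Nop56 and Nop58, the paired core proteins of box C/D particles, were called in the earlier step. Nop56 fell from B to C (-0.90 ± 0.13; limma adjusted p = 2.72e-06) and was not called from C to D (-0.04 ± 0.14; limma adjusted p = 0.862). Nop58 likewise fell from B to C (-1.24 ± 0.17; limma adjusted p = 8.49e-07) and was not called from C to D (-0.14 ± 0.19; limma adjusted p = 0.637). Nop56 signals in C were 9191, 8796, 6549, 6754 and 5710.0, arrays 1 and 2 being the highest, and 11856 to 15222 (median 13406) in B, without overlap. Whether Fbl differs from its partners in these steps was not tested.

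In the box H/ACA particle, Dkc1 signals were 3589.7 to 5346 (median 3983) in the CLP, 4623 to 11106 (median 6471) in A and 6459.9 to 18621 (median 9082) in B. They were 4771, 5208, 2884, 3019 and 2869 in C, 2324, 1713, 3842, 1779.8 and 1475 in D, 2842, 2786, 2488, 2996 and 3988 in E and 2590.1, 3357, 5044, 3698 and 2388 in F, and all 7 arrays of B lay above all of C to F and the CLP. Its partner Nhp2 fell from B to C (-0.92) and from C to D (-0.76), the second call being lost without any one of C array 1 or C array 2 (-0.58 to -0.57). Nop10, the smallest subunit, kept its lowest mean in F, where signals were 1942, 3439, 2882, 3105 and 2668, beside 7056 to 8275 (median 7516) in the CLP.

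Of 14 small subunit factors, 9 fell from B to D and 2 rose from D to E. Nob1 signals were 299 to 411 (median 356) in the CLP, 12.8 to 312 (median 198) in A and 140.4 to 498 (median 221) in B. They were 689.5, 481, 334, 315 and 269.5 in C, 159.9, 27.2, 83.9, 20.8 and 123 in D, 34.6, 216, 120.1, 192 and 239 in E and 149.6, 177, 159, 299.6 and 185 in F. All arrays of C lay above all of D, and 2 of the 5 arrays of D reached their array's median signal for this gene. Its rise from A to B (1.02) was lost without any one of A array 4, A array 6, A array 7, B array 2, B array 3 or B array 5 (0.74 to 0.99).

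Tsr1, a late factor of small subunit assembly, had signals of 4059.5 to 6123 (median 4689.7) in the CLP, 2954 to 14835 (median 6476) in A and 3914 to 7704 (median 7012) in B. They were 4049.9, 4430.1, 2942, 3119 and 2580.2 in C, 2816, 2498, 3012, 2295 and 2370.5 in D, 5424, 5046, 5901, 5471 and 6414 in E and 5577, 6662, 6898, 6029 and 4804 in F. E and F lay above every array of C and D, and within the range of B. Wdr43, of the processome, had 1406, 983, 998, 1285 and 1340.5 in D and 2261, 2523, 1809.9, 1992 and 2285 in E, without overlap, and rose by 0.84 ± 0.20 (limma adjusted p = 0.00291). Both genes carry CACGTG after the start, as printed above.

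Imp4, a U3 snoRNP protein, had its highest mean in C, with 3867, 3942, 2247, 2966 and 2772, and signals of 1125, 1225, 1576, 1319 and 1389 in D. It fell from C to D (-1.21 ± 0.26; limma adjusted p = 0.000605) and was lower in F than in the CLP (limma adjusted p = 0.000775). Heatr1 fell from the CLP to A and rose from A to B, with signals of 912 to 1802 (median 1391), 298 to 1208 (median 821) and 418 to 2029 (median 1342) in these populations. Its later signals ran from 620.4 to 2054 over C to F. It was not called in any later comparison with scaled signals, the difference from C to D being -0.81 ± 0.33 (limma adjusted p = 0.0776), but was called lower in D than in B and C after quantile normalization (-0.78 and -0.79).

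Bysl and Wdr75 departed from the common course, and Rrp9 did so with scaled signals only. Bysl, a factor of small subunit assembly, had signals of 934, 954, 989, 962 and 634 in D, 783, 680.4, 1055, 814 and 1181 in E and 497 to 1208 (median 865) in B, ranges that overlapped. Rrp9 signals were 139 to 248 (median 189) in the CLP, 47.6 to 215 (median 125) in B and 207, 183, 167, 172 and 209.5 in C. Of the 5 arrays of F, 1 reached its array's median signal for Rrp9. Its difference from B to D was 0.09 with scaled signals and -0.30 after quantile normalization, called in neither. Wdr75, of the processome, was higher in B than in A (0.73 ± 0.21; limma adjusted p = 0.00748) and was not called in later steps.

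Of 16 large subunit factors, 15 fell from B to D and 4 rose from D to E. Grwd1, a WD-repeat protein of ribosome assembly, moved most of all 45 genes. Its signals were 1042 to 1654 (median 1496) in the CLP, 1344 to 5760.4 (median 2108) in A and 3180.2 to 5535 (median 4662) in B. They were 1405, 1759.7, 606, 714 and 627 in C, 692, 502, 930.3, 649.8 and 811 in D, 1307, 1081, 1376, 1435 and 1507 in E and 1005, 1179, 1843, 1770.1 and 1171 in F. Each array of B lay above every array of the CLP, C, D, E and F, and D lay wholly below E. The difference from B to D was -2.64 ± 0.25 (limma adjusted p = 1.45e-10).

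Gnl3 (nucleostemin), a nucleolar GTPase of dividing progenitors, had signals of 2399 to 3349 (median 2955) in the CLP, 679 to 3271 (median 2264) in A and 3442 to 4962 (median 4134) in B. They were 3140.3, 3375, 1812, 1956 and 1530.1 in C, 788, 912, 1236, 690.0 and 719 in D, 1293, 1448, 1633, 1787 and 1758 in E and 2073, 1799.7, 1634, 1511 and 2003 in F. B lay wholly above the CLP, A, C and D, and D wholly below C, E and F. The fall from B to D was -2.22 ± 0.23 (limma adjusted p = 8.76e-10). Its rise from D to E was lost without any one of the arrays named above.

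Pes1, Bop1 and Wdr12 form one complex that large subunit assembly needs. Pes1 had 2532, 2337, 1579, 1385 and 1547 in C, 822, 904, 950.4, 929 and 1169 in D, 1708, 1652, 1752, 1556 and 2119.7 in E and 1938, 1806, 1726, 1376 and 1437 in F. D lay wholly below the others, and the rise to E was 0.86 ± 0.18 (limma adjusted p = 0.000703). Bop1 had 972, 863, 774, 788 and 585 in C, 384, 490.0, 353, 437 and 448 in D, 519.5, 418, 445, 437 and 393 in E and 434, 368, 401, 220.2 and 331 in F. It was not called from D to E (0.07 ± 0.27; limma adjusted p = 0.964), and its fall from C to D (-0.86; limma adjusted p = 0.0186) was lost without C array 1 (-0.78). Wdr12 had 842, 923, 954, 783 and 732 in D and 958, 1210.0, 1148, 1345 and 1258 in E, without overlap but not called (0.47 ± 0.23; limma adjusted p = 0.291). The difference between the partners was not tested.

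Rrp1b was high in the CLP, at 1651 to 2184 (median 1970.1), and lower in A, at 485 to 1044 (median 772), without overlap (-1.25 ± 0.20; limma adjusted p = 5.84e-06). It rose to 978 to 2799 (median 1720.1) in B and fell to 507, 473, 542, 455 and 492 in D. Noc2l, a partner of Noc3l in precursors of the large subunit, fell from B to C (-0.96 ± 0.19; limma adjusted p = 0.000238) and again from C to D (-0.93 ± 0.21; limma adjusted p = 0.00105), without overlap in either step. Rrp15 likewise fell from B to C (-1.02) and from C to D (-0.76), though the second call was lost without any one of C array 1, C array 2, D array 1, D array 2 or D array 5 (-0.74 to -0.58).

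The likeness of each gene to the mean of the others was measured as Pearson's r over the 7 population means. The median r was 0.80, the range -0.23 to 0.97, and 29 of the 45 lay above 0.7. These points share the same 41 arrays and are given as a description. Gnl3 (0.97) and Mybbp1a (0.96) were among the most alike, and Bysl (-0.23), Rrp9 (0.11), Wdr75 (0.17), Polr1a (0.43) and Heatr1 (0.45) the least. After quantile normalization the median was 0.84, and 34 lay above 0.7. Rrp9 then had an r of 0.60 and Heatr1 one of 0.62, while Bysl had -0.15, Wdr75 0.11 and Polr1a 0.48.

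Other genes were read beside these 45. A longer list of ribosome biogenesis factors had 122 tested genes. Of these, 54 rose and 1 fell from A to B (16.8% and 14.5% of all genes did). From B to D 1 rose and 54 fell (15.9% and 14.7% of all). From D to E 1 rose (0.82%, below the 3.89% of all genes). None fell (4.21% of all did), with 1 lower at an unadjusted p under 0.05 in limma. The median differences of the 122 genes were 0.50, -0.60 and 0.17. They had the directions of the 45 genes, with smaller sizes from B to D and from D to E. Of 41 cytosolic ribosomal protein genes, 34 fell and 1 rose from B to D with scaled signals (median -0.78, beside the same shares of all genes). After quantile normalization 19 fell (17.7% of all genes did), with a median of -0.26. In the comparisons with the CLP this list turned with the scaling. With scaled signals 33 rose in A and 33 in B (11.5% and 8.77% of all). After quantile normalization 4 and 3 did (12.5% and 6.81% of all).

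Of 29 DNA replication genes, 19 rose from A to B (16.8% of all genes did). From B to D 15 fell with scaled signals (14.7% of all), with a median of -0.64. After quantile normalization 10 fell (17.7% of all) and 2 rose (11.8% of all), with a median of -0.37. From D to E 16 fell (4.21% of all), with a median of -0.96. None rose (3.89% of all did), with 0 higher at an unadjusted p under 0.05 in limma. Among the 45 ribosome biogenesis genes there were 8 risers and no fall. Against the CLP, 22 of the 29 were lower in F (26.6% of all). The calls of replication and ribosome biogenesis genes from D to E ran in opposite directions; the difference between the lists was not tested.

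Myc had signals of 2979.8 to 3599 (median 3393) in the CLP, 2653 to 5906 (median 3796) in A and 2679 to 6078 (median 3276) in B. They were 1905 to 4190.3 (median 2251) in C, 203 to 617 (median 334) in D, 1215 to 1605 (median 1264) in E and 1551 to 2421 (median 2116) in F. All arrays of D lay below those of every other population. Myc was not called from B to C (-0.49 ± 0.22; limma adjusted p = 0.103), fell from C to D (-2.73 ± 0.24; limma adjusted p = 3.95e-11) and rose from D to E (1.80 ± 0.24; limma adjusted p = 3.88e-07). It was lower in F than in the CLP (-0.75 ± 0.22; limma adjusted p = 0.00551). Myc and the mean level of the 45 genes were lowest in the same population, as was that of the cytosolic ribosomal protein genes. No relation between Myc and these genes was tested.

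**Figure D5:**
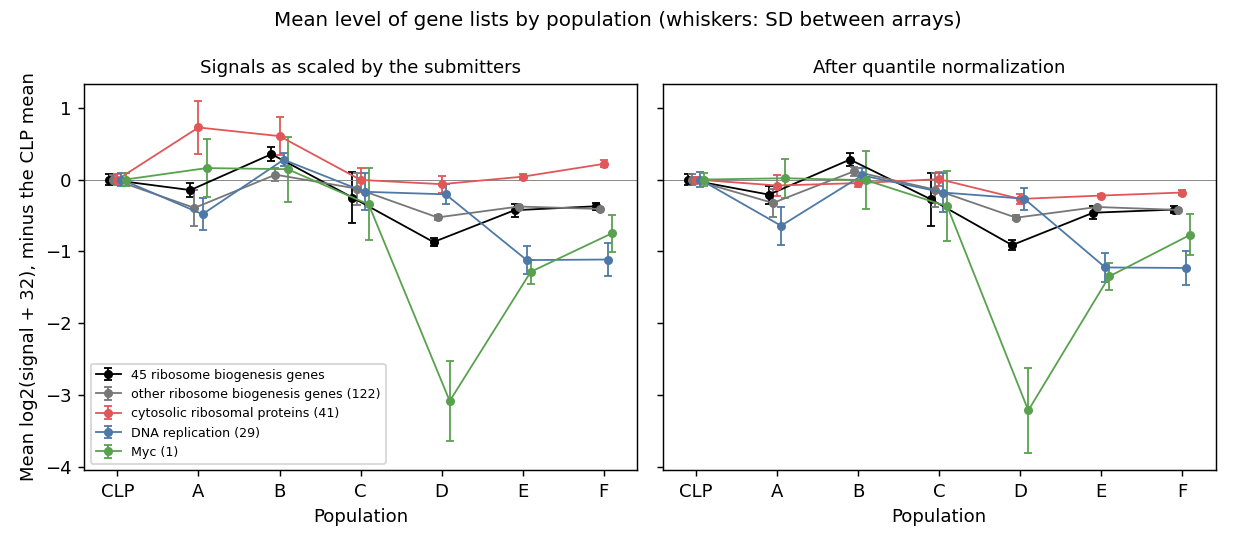
Mean log2(signal + 32) of 5 gene lists minus their CLP mean (y axis), by population (x axis), with whiskers for the SD between arrays; the left panel has scaled and the right quantile-normalized signals. Myc and both lists of ribosome biogenesis genes have their lowest point in D in both panels. So do the ribosomal protein genes, by less (13.10 in D beside 13.16 in C with scaled signals, before the CLP mean is taken off). The DNA replication genes are lowest in E and F and higher in D (10.49 and 10.50 beside 11.40 with scaled signals, before the CLP mean is taken off). The ribosomal protein genes are raised in A and B only with scaled signals.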

How the data were processed

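Biotin-labelled total RNA, amplified from small samples, was hybridised to 41 arrays. The deposited values are MAS5 signal intensities on a linear scale, 1 per probe set, computed by the authors with MAS5 per the submitters' processing notes (version not given there). Each array had been scaled to the same trimmed mean of 500, and 0 columns went unmapped to a sample. MAS5 scaling fixes the mean and not the median, so quantile normalization was run beside it throughout.

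Signals were tested as log2(signal + 32) with limma 3.58.1 in R 4.3.3, with data.table (version 1.17.8) and statmod (1.5.0): lmFit on 7 population means, all 41 arrays sharing one estimate of the spread, then eBayes with trend and robust set, 9 comparisons and an F-test. Genes had to reach the array median on at least 5 arrays, which left 11947. Control probe sets and those with several genes or none were left out. The code was tested on simulated data. The number of arrays limits the precision.

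The ribosome biogenesis genes and the lists were chosen with earlier results of these data known. Named in each comparison were up to 2 called genes with the largest rise and fall in each role, 8 genes throughout (Ncl, Npm1, Fbl, Nop56, Gnl3, Polr1b, Heatr1 and Bop1), those called against the majority and those that missed the F-test; other genes were chosen after their values were seen. Replicate numbers did not pair the arrays over the series as a whole: of 111 same-numbered pairs, 9 correlated above 0.1. Between D and E, however, same-numbered pairs correlated at 0.035 to 0.127, with a mean of 0.070 beside -0.018 for other pairs. Between E and F they did so at 0.050 to 0.120, with a mean of 0.082 beside -0.021. The main fit did not use the numbers. Other settings tried were quantile normalization, median centring, a stricter filter, the mean of probe sets, fits of the compared populations alone, array weights, a replicate block and leaving out arrays.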

Additional observations from a re-analysis of the deposited data

Results flagged for a closer look

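In 98 groups of 5 or 7 arrays, the gap between the most extreme array and its neighbour was set against the range of the group (Dixon's test), and 2 groups passed the 95% limit; chance alone gives about 1 in 20. Polr1b in F had a ratio of 0.821: F array 3 was high, at a log2(signal + 32) of 8.41 beside 7.87 for the next array. Bop1 in A had a ratio of 0.676: A array 7 was high, at 11.40 beside 10.02.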

How the results depend on the processing

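Counts are of genes called in the majority direction: 13 lower in A than in the CLP, 22 higher in B than in A, 15 higher in B than in the CLP, 18 lower in D than in C, 8 higher in E than in D, 0 in F against E and 13 lower in F than in the CLP. Over all settings 257 of 280 counts stayed within 1.5 times the reported one and 23 did not. Of 3156 differences of named genes, 2991 kept direction and call, 95 lost the call, 57 gained one and 13 changed sign. The cause of these changes was not tested. Counts of all genes are not given beside those below, so a changed count may reflect the whole test and not these genes alone.

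Quantile normalization gave 13 for E against D, and median centring 5 (A against the CLP), 28 (B against the CLP) and 5 (E against D). The filter at the 75th percentile, which kept 40 of the genes, gave 8 for A against the CLP. The mean of probe sets gave 9 for B against the CLP. Fits of only the populations compared gave 5 (A against the CLP), 8 (B against A), 25 (E against D), 2 (F against E) and 24 (F against the CLP). Array weights gave 7 (A against the CLP), 24 (B against the CLP), 31 (D against C), 23 (E against D), 1 (F against E) and 22 (F against the CLP). Of 4 settings added after seeing the data, the fit without A gave 24 (B against the CLP) and 17 (E against D), and leaving out A arrays 4, 6 and 7 gave 5 (A against the CLP).

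Leaving out each array in turn gave 10 to 17 (A against the CLP), 16 to 25 (B against A), 12 to 16 (B against the CLP), 17 to 26 (C against B), 11 to 19 (D against C), 37 to 40 (D against B), 5 to 8 (E against D), 0 (F against E), 11 to 13 (F against the CLP) and 39 to 43 (F-test).

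Signs turned for A against the CLP with quantile normalization in Ncl (-0.040), Nop56 (-0.067) and Npm1 (-0.13), and with the mean of probe sets in Dkc1 (-0.35), Grwd1 (-0.28), Ncl (-0.074), Noc4l (-0.097) and Nop56 (-0.087). They turned for Npm1 in B against A (0.35 with quantile normalization, 0.60 without A arrays 4, 6 and 7) and in F against the CLP (-0.25 with quantile normalization), and for F against the CLP with the mean of probe sets in Bop1 (0.30) and Ncl (-0.14). The median difference of A against the CLP was 0.092 with median centring. With the replicate number as a block the counts were 13, 20, 15, 22, 18, 39, 9, 0 and 12 in the order of the comparisons in the report, and 41 in the F-test. In E against D and F against E, 4 of 5 numbers correlated best with their own.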
